A study of Mus musculus with 6 samples.

Results

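The genes described here carry the interleukin-2 (IL-2) signal from the cell surface to the nucleus and back: the receptor chains Il2ra, Il2rb and Il2rg, the kinases Jak1 and Jak3, the transcription factors Stat5a and Stat5b, and the feedback inhibitors Cish, Socs1 and Socs2. Probe sets were taken if the array annotation named a single gene symbol on this list of 10. This gave 16 probe sets for 9 genes, of 22626 probe sets and 12393 genes on the array. Il2rg, the common gamma chain that several cytokine receptors share, had no probe set named for it alone and was not analysed here. RNA levels were measured in regulatory T cells (Tregs) on 6 Affymetrix Mouse430A arrays, 3 from WT mice, labelled C57BL6, and 3 from mice labelled fl-HDAC11/Foxp3cre, called HDAC11-/- below. In the latter, Cre recombinase is driven by Foxp3 together with YFP and deletes the floxed Hdac11 gene in cells that express Foxp3, so cells of the preparation without Foxp3 keep the gene. The mice were male and aged 6 to 8 weeks where the methods state no other age, and the WT label names no Cre allele. By the methods, the floxed and Cre strains were backcrossed to C57BL/6, and WT C57BL/6 mice came from The Jackson Laboratory. The CD4+CD25+ cells were separated with magnetic beads, and no treatment is stated in the labels.

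IL-2 is held by a receptor of 3 chains, in which CD25 (Il2ra) raises the affinity and CD122 (Il2rb) and the common gamma chain carry the signal. JAK1 and JAK3, bound to these chains, phosphorylate STAT5, which enters the nucleus and drives genes such as Cish, Socs1, Socs2 and Il2ra itself. CIS and the SOCS proteins then dampen the receptor, and Tregs, which depend on IL-2 but make little of it, rely on this circuit for survival and for Foxp3 expression.

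Array medians lay between 6.74 and 6.77 on the log2 scale, and genotype separated the arrays on the first principal component, which held 80.9% of the variance. Two-sided tests were made with limma and adjusted by the Benjamini-Hochberg method over all 22626 probe sets. A probe set passed the test at an adjusted p under 0.05, and was called if it also differed by at least 1.5-fold. Whether the 3 arrays of a group came from separate mice is not in the labels, so p-values measure the spread among these arrays. The Hdac11 probe sets differed by -0.12 (adjusted p = 0.222, limma) and -0.10 (adjusted p = 0.532) and overlapped between groups. Where they lie relative to the deleted part is not given, so they check nothing. The T cell genes Cd3e, Cd3d, Cd3g, Cd2 and Cd5 did not pass the test, while Cd4 was lower by -0.32. Of 8 Treg markers, Ctla4 was higher by 0.50, Ikzf2, Itgae and Izumo1r were lower, 4 did not pass, and Foxp3 was no brighter on any array than that array's brightest bacterial control probe set, here called the control range. Markers of other cells moved with genotype: 4 of 6 measured B cell markers were called lower (Blk, Ms4a1, Cd79a and Cd22), with a mean level of 7.59 to 7.68 in WT against 6.55 to 6.62 in HDAC11-/- arrays and Pax5 within the control range in both. The 8 myeloid and dendritic markers were mixed (list mean 6.65 to 6.70 against 6.37 to 6.45): H2-Aa and Cd74 were called lower and Itgax was lower by -0.39, Lyz2 was higher by 0.53 and Cd68 by 0.37, and Csf1r, Itgam and Adgre1 did not pass, the latter pair in the control range. So were the 6 CD8 and NK markers (7.52 to 7.59 against 7.16 to 7.19): Fcer1g and Ncr1 were called lower and Klrd1 was lower by -0.34, Cd8b1 was higher by 0.42, and Cd8a and Nkg7 did not pass. Over all genes, each by its brightest probe set, 3.46% were called higher and 3.72% lower. Of 16 immediate early genes, 10 were called higher (8.45 to 8.51 against 10.59 to 10.62). So were 8 of 8 mitotic genes (6.92 to 6.96 against 9.07 to 9.11). The part of these shifts in the results that follow was not tested.

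The IL-2 axis genes moved about as much as the genes of the whole array. By the brightest probe set of each gene, limma called 0 of 9 genes, against 7.18% of all genes. SAM with the same fold threshold also called 0, against 7.20%. An unadjusted p under 0.05 (limma) was found for 6 of 9. The share of all genes at that unadjusted p was not computed, here or for the lists below. It is at least the 46.0% that passed the adjusted p, so such counts are not read as an excess. Without the fold threshold 5 of 9 passed the test, against 46.0% of all genes, and by SAM 3 of 9 had a q under 0.05, against 38.3%. By limma Stat5a and Cish were higher in HDAC11-/- Tregs, and Jak3, Socs1 and Socs2 were lower. The 9 differences ran from -0.33 to 0.30 on the log2 scale, with a median of -0.03, beside -0.04 over all genes, and a median size of 0.18, beside 0.19 over all genes. All 9 genes had a 95% confidence interval of the difference inside 1.5-fold either way, which also held for 82.2% of all genes. Among the 16 probe sets, 1 was called, a Jak1 probe set that was lower, against 8.90% of all probe sets, of which 3.87% were called higher and 5.03% lower. A further 4 probe sets were higher and 3 lower past the adjusted p alone, so that 8 of 16 passed, against 45.6% of all probe sets, 23.2% higher and 22.4% lower. By SAM 5 of 16 had a q under 0.05, against 39.7%. The groups did not overlap for 11 of the 16 probe sets, 4 higher and 7 lower in HDAC11-/- Tregs, against 56.7% of all probe sets, 28.2% higher and 28.5% lower. The shares that passed or did not overlap thus lay near those of the whole array. Centring the arrays on 13 reference genes moved the median difference of all probe sets from -0.03 to -0.15, so the direction of the smallest differences depends on the scale. Of these reference genes, 4 were themselves higher past the test in HDAC11-/- Tregs, and 9 did not pass. The 4 were Hprt (0.51), Pgk1 (0.49), Tbp (0.20) and Gusb (0.17), so passes lost or gained on this scale are not a neutral check.

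**Figure D1:**
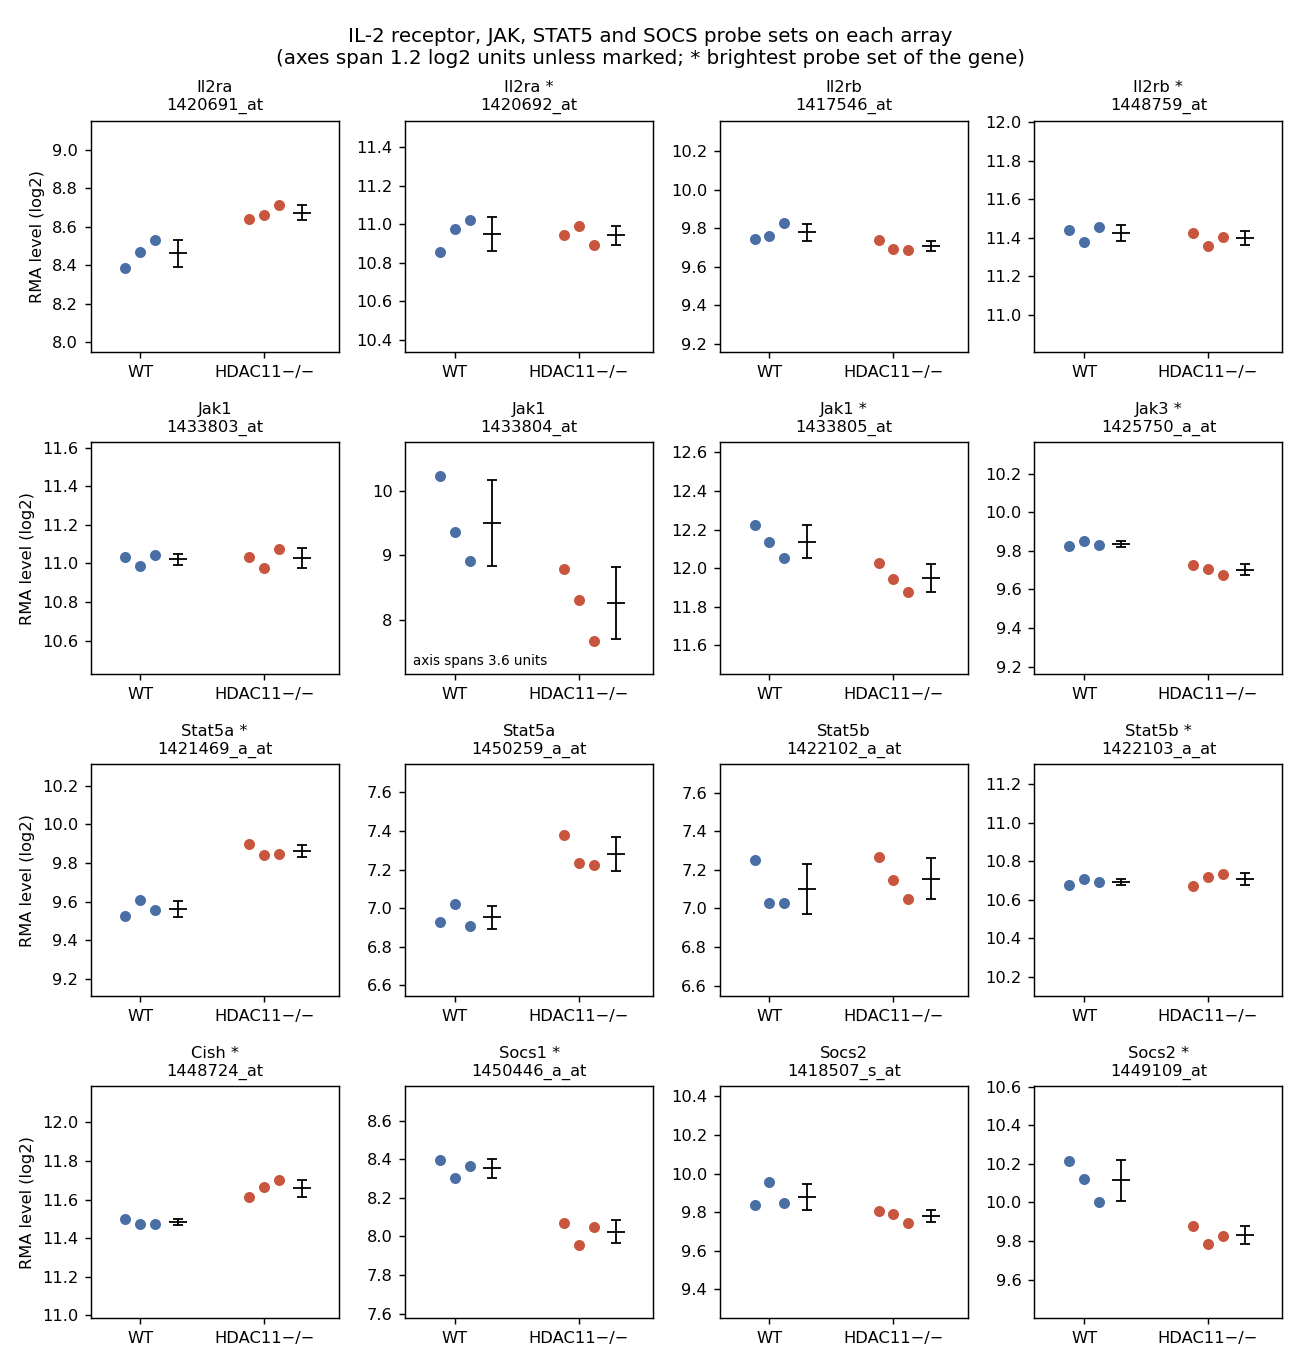
RMA level (log2) of each of the 16 probe sets on the 3 WT (blue) and 3 HDAC11-/- (red) arrays, with the mean and SD of each group beside the points and an asterisk on the brightest probe set of each gene. Stat5a was higher on all HDAC11-/- arrays at both probe sets, Socs1 was lower on all of them, and the Jak1 probe set with the wider axis ran from 10.23 down to 7.67.

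The receptor chains gave no called difference. CD25, the product of Il2ra, was also the surface protein used to separate the cells, and the part of that selection in its RNA level was not tested. The brighter Il2ra probe set, 1420692_at, read 10.85, 10.97 and 11.02 in WT and 10.94, 10.99 and 10.89 in HDAC11-/- Tregs. The groups overlapped, and the difference was -0.0069 ± 0.060 (log2, SE, n = 3 per group), with a 95% interval from -0.15 to 0.14 (adjusted p = 0.935, limma). The dimmer Il2ra probe set, 1420691_at, read 8.39, 8.47 and 8.53 in WT and 8.64, 8.66 and 8.71 in HDAC11-/- Tregs. Here every HDAC11-/- array lay above every WT array, and the probe set was higher by 0.21, or 1.16-fold (interval 0.08 to 0.34, adjusted p = 0.0187, limma). The probe sets of Il2ra therefore disagreed. The brighter minus the dimmer, each as its change from the WT mean, came to -0.19, -0.16 and -0.31 on the HDAC11-/- arrays, below the 3 WT values. The rise of the dimmer probe set did not pass the test on the reference-gene scale (0.10, adjusted p = 0.147), by SAM (q = 0.0687), or without HDAC11-/- replicate 2 (adjusted p = 0.0547) or replicate 3 (0.0671).

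Il2rb, the chain shared by the IL-2 and IL-15 receptors, did not pass the test at either probe set. Its brighter probe set, 1448759_at, read 11.44, 11.38 and 11.46 in WT and 11.43, 11.36 and 11.41 in HDAC11-/- Tregs. These values overlapped, with a difference of -0.03 (interval -0.14 to 0.08, adjusted p = 0.646, limma). Its dimmer probe set, 1417546_at, read 9.75, 9.76 and 9.83 against 9.74, 9.69 and 9.69. The HDAC11-/- arrays were the lower ones without overlap, yet the difference of -0.07 did not pass the test (interval -0.18 to 0.04, adjusted p = 0.249, limma). On the reference-gene scale it did, at -0.18 (adjusted p = 0.0174). In RNA of a mixed preparation, fewer cells of a type and less RNA per cell cannot be told apart. Il2rb is also carried by NK cells. The CD8 and NK markers were mixed: Fcer1g, Ncr1 and Klrd1 were lower, Cd8b1 was higher, and Cd8a and Nkg7 did not pass. The part of other cells in the Il2rb level was not tested.

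Jak1, the kinase bound to Il2rb, gave a different answer at each of its 3 probe sets. The brightest, 1433805_at, read 12.23, 12.14 and 12.05 in WT and 12.03, 11.95 and 11.88 in HDAC11-/- Tregs. All HDAC11-/- arrays were lower, by -0.19 on average, with an interval from -0.34 to -0.03 and an adjusted p of 0.0527 (limma), which just missed the test. It passed with an intensity trend and robust prior (adjusted p = 0.0087), array weights (0.0393), the replicate block (0.0315), a filter on dim probe sets (0.0212), the reference-gene scale (-0.30, 0.0111) and without WT replicate 3 (0.0368). This probe set did not pass by SAM (q = 0.102) or on the bacterial-control scale (-0.16, adjusted p = 0.0859, limma). Nor did it pass on leaving out any single array other than WT replicate 3 (adjusted p from 0.0534 to 0.155). By the median of the Jak1 probe sets the difference was 0.0075 (adjusted p = 0.908). The second, 1433803_at, read 11.03, 10.99 and 11.04 against 11.03, 10.98 and 11.08. These overlapped, and the difference was 0.0075 (adjusted p = 0.911, limma). The dimmest, 1433804_at, read 10.23, 9.36 and 8.91 in WT and 8.79, 8.31 and 7.67 in HDAC11-/- Tregs. Every HDAC11-/- array lay below every WT array, and the probe set fell by 1.24 on the log2 scale (0.422-fold, SE 0.39, interval -2.19 to -0.30, adjusted p = 0.0398, limma).

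The spread at 1433804_at was unusual for these arrays. Its SD was 0.67 among WT and 0.56 among HDAC11-/- arrays, where the median probe set had 0.090 and 0.066, and its WT spread exceeded that of 99.97% of probe sets. The call was lost with an intensity trend and robust prior (adjusted p = 0.110), and without WT replicate 1 (-0.88, 0.0806), WT replicate 2 (-1.32, 0.0750), HDAC11-/- replicate 2 (-1.27, 0.0881) or HDAC11-/- replicate 3 (-0.95, 0.110). A probe set of Cbl, the E3 ubiquitin ligase that acts on activated receptors, ran in the same order within each group: 1455886_at read 10.18, 9.77 and 9.46 in WT and 9.45, 9.01 and 8.89 in HDAC11-/- Tregs. This Cbl probe set was called lower with a difference of -0.69 (adjusted p = 0.0358, limma), while the other, 1450457_at, was higher by 0.31 (adjusted p = 0.0018). The order was not particular to Jak1 and Cbl. It also held for the brightest probe sets of Jak1, Stat3 and Il6ra. Stat3 read 11.24, 11.08 and 11.01 in WT and 10.87, 10.78 and 10.62 in HDAC11-/- Tregs. How many probe sets of the array share this order was not counted. Of 4 controls of RNA integrity, Actb and Gapdh separated the genotypes slightly. The 3' minus 5' signal of the Actb control was 0.47 to 0.53 in WT and 0.42 to 0.44 in HDAC11-/- arrays, and that of Gapdh was 0.088 to 0.095 and -0.0011 to 0.037. The pyruvate carboxylase control (0.022 to 0.36 and 0.00023 to 0.081) and the transferrin receptor control (1.52 to 1.74 and 1.51 to 2.06) overlapped between groups. Their part in the Jak1 values was not tested.

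Jak3, the kinase bound to the common gamma chain, had 1 probe set named for it alone, 1425750_a_at. It read 9.82, 9.85 and 9.83 in WT and 9.73, 9.71 and 9.67 in HDAC11-/- Tregs. The groups stood apart with little spread within either, and Jak3 was lower by -0.13, or 0.913-fold (interval -0.23 to -0.03, adjusted p = 0.0422, limma). Of the 5 genes past the test, Jak3 was lost under the most alternatives. It was lost by SAM (q = 0.169), on the bacterial-control scale (-0.11, adjusted p = 0.121), and on leaving out any 1 of the 6 arrays, where the adjusted p ran from 0.0717 without WT replicate 1 to 0.131 without HDAC11-/- replicate 3. With the replicate number as a block the adjusted p was 0.0877.

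Stat5a and Stat5b encode closely related transcription factors and neighbour each other in the mouse genome. Their promoters share a stretch of sequence, shown here because the RNA of Stat5a, but not that of its neighbour, passed the test between genotypes. The best 40-base match between the windows before their annotated starts (RefSeq, GRCm38.p6) had 36 identical bases. Capitals mark the 4 that differ, and the stretch ends 12 bases before the Stat5a start and 3 before the Stat5b start.
Stat5a, chr11:100860432-100860471, plus strand: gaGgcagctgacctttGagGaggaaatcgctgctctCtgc
Stat5b, chr11:100822574-100822613, minus strand: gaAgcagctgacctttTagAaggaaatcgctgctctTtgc

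Stat5a was higher at both of its probe sets. The brighter, 1421469_a_at, read 9.52, 9.61 and 9.56 in WT and 9.90, 9.84 and 9.84 in HDAC11-/- Tregs. Every HDAC11-/- array was above every WT array, with a rise of 0.30 ± 0.046 (log2, SE, n = 3 per group), or 1.23-fold (interval 0.19 to 0.41, adjusted p = 0.0025, limma; SAM q = 0.0113). The dimmer, 1450259_a_at, read 6.93, 7.02 and 6.91 against 7.38, 7.23 and 7.22. It stood apart in the same way and rose by 0.33, or 1.25-fold (interval 0.18 to 0.48, adjusted p = 0.0060, limma). Both rises passed the test under every alternative that gave a value, the lowest being 0.19 and 0.21 on the reference-gene scale.

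Stat5b, the partner with the broader tissue expression, was level. Its brighter probe set, 1422103_a_at, read 10.68, 10.71 and 10.69 in WT and 10.67, 10.72 and 10.73 in HDAC11-/- Tregs. The arrays overlapped, and the interval of the difference, -0.09 to 0.12, allowed at most a small change either way (0.02, adjusted p = 0.792, limma). Its dimmer probe set, 1422102_a_at, read 7.25, 7.03 and 7.03 against 7.27, 7.15 and 7.05, also with overlap (0.05, adjusted p = 0.646). Within each array, the change of Stat5a from its WT mean minus that of Stat5b, both by the brighter probe set, was -0.02, 0.03 and -0.01 in WT and 0.36, 0.25 and 0.24 in HDAC11-/- Tregs. This quantity is not changed by an offset added to all log2 values of an array. Its groups did not overlap, with a difference of 0.28. The a in these probe set names marks probes that match several transcripts of a gene, so the transcripts measured cannot be told apart.

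**Figure D2:**
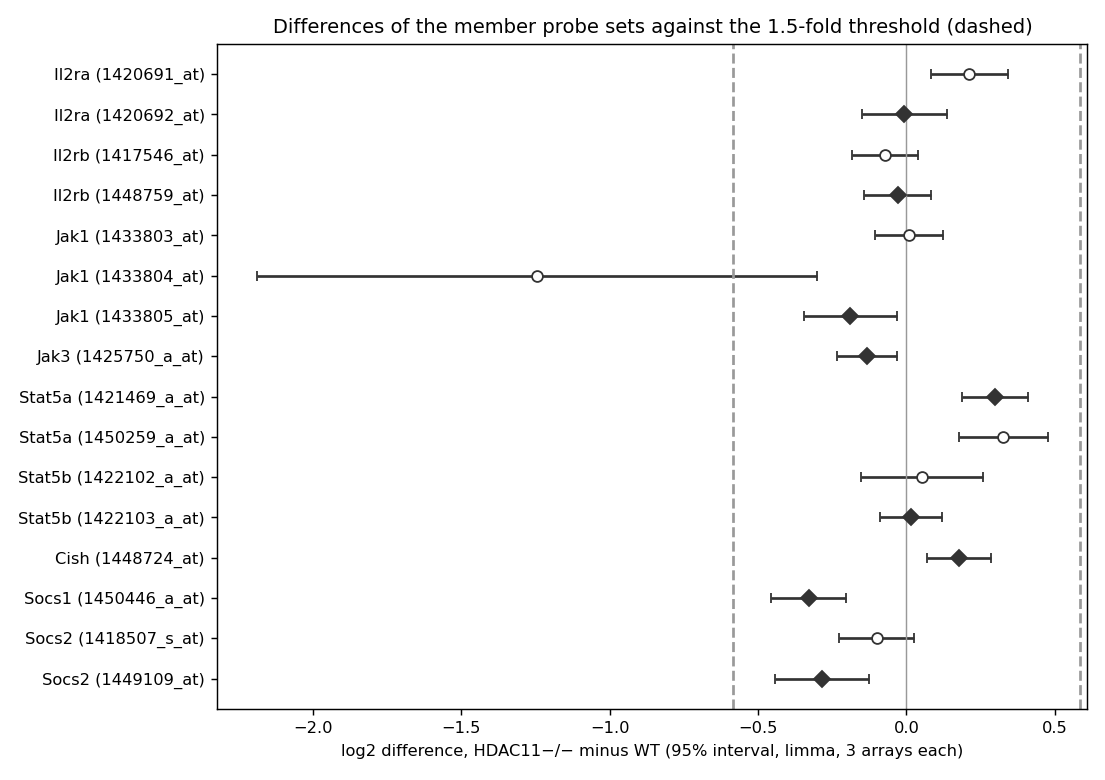
Difference between HDAC11-/- and WT Tregs (log2) for each of the 16 probe sets with its 95% interval from limma, 3 arrays per group. Diamonds are the brightest probe sets, open circles the others, and dashed lines mark 1.5-fold. The Jak1 probe set at -1.24 was the only one whose interval reached past 1.5-fold, and 15 of 16 intervals lay inside, which held for 78.9% of all probe sets.

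The feedback genes went in both directions. Cish encodes CIS, an SH2 protein that binds the IL-2 receptor and is a classical STAT5 target. Its promoter is shown because it was the only one among the 8 IL-2 axis genes with a promoter window (RefSeq, GRCm38.p6, 250 bases before to 50 after the start) to hold the STAT motif TTCNNNGAA, which reads the same on both strands. It held 2 copies, in capitals, the first beginning at the annotated start of the transcript.
Cish, chr9:107296654-107296683, plus strand: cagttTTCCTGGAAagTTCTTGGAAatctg
At least 1 copy was found in 8.30% of 32851 windows of this length, and 2 or more in 0.457%. The windows of Il2ra, Il2rg, Jak1, Jak3, Stat5a, Stat5b and Socs1 held none of these letters in that arrangement.

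Cish read 11.50, 11.47 and 11.48 in WT and 11.61, 11.66 and 11.70 in HDAC11-/- Tregs at its 1 probe set, 1448724_at. All HDAC11-/- arrays were higher, by 0.18, or 1.13-fold (interval 0.07 to 0.29, adjusted p = 0.0187, limma). The rise was lost on the reference-gene scale (0.07, adjusted p = 0.271), by SAM (q = 0.101), and without HDAC11-/- replicate 2 (0.0649) or replicate 3 (0.0694).

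Socs1, whose product binds and inhibits JAK kinases and restrains both cytokine and interferon signals, was lower. It read 8.40, 8.30 and 8.36 in WT and 8.07, 7.96 and 8.05 in HDAC11-/- Tregs at its 1 probe set, 1450446_a_at. Its groups were well separated for their spread, and Socs1 fell by 0.33 on the log2 scale, to 0.796-fold (SE 0.053, interval -0.46 to -0.20, adjusted p = 0.0029, limma; SAM q = 0.0067). Socs2, an inhibitor best known for growth hormone signalling, was lower at its brighter probe set. That probe set, 1449109_at, read 10.22, 10.12 and 10.003 in WT and 9.88, 9.79 and 9.82 in HDAC11-/- Tregs. The highest HDAC11-/- array lay below the lowest WT array, and the level fell by 0.29 on the log2 scale (interval -0.44 to -0.13, adjusted p = 0.0126, limma; SAM q = 0.0247). The dimmer Socs2 probe set, 1418507_s_at, read 9.84, 9.96 and 9.85 against 9.81, 9.79 and 9.75. It was also without overlap and lower, but by -0.10, and did not pass the test (adjusted p = 0.160) except on the reference-gene scale (-0.21, adjusted p = 0.0127). The lower levels of Socs1 and of the brighter Socs2 probe set passed the test under every alternative that gave a value, with a highest adjusted p of 0.0140 and 0.0489.

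**Figure D3:**
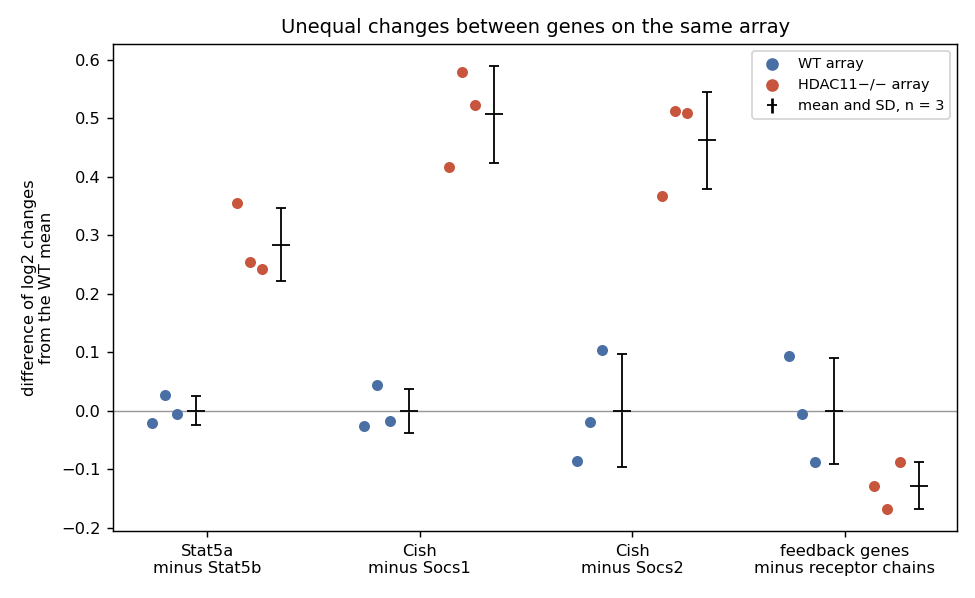
Differences between genes on the same array: the change of the first gene from its WT mean minus that of the second (log2), for each WT (blue) and HDAC11-/- (red) array with the mean and SD of each group, n = 3. Cish rose relative to Socs1 by 0.42 to 0.58 and relative to Socs2 by 0.37 to 0.51 on the HDAC11-/- arrays, while the feedback genes minus the receptor chains overlapped, with a lowest WT value and a highest HDAC11-/- value of -0.09.

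Measured against each other on the same array, Cish and the SOCS genes parted. The change of Cish from its WT mean minus that of Socs1 was -0.03, 0.04 and -0.02 in WT and 0.42, 0.58 and 0.52 in HDAC11-/- Tregs. The change of Cish minus that of Socs2 was -0.09, -0.02 and 0.10 in WT and 0.37, 0.51 and 0.51 in HDAC11-/- Tregs. Neither pair of groups overlapped, and the mean differences were 0.51 and 0.46. As these values follow from genes chosen with their results known, they carry no test.

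Feedback genes as a group were set against the receptor chains by the mean change from WT of Cish, Socs1 and Socs2 minus that of Il2ra and Il2rb. The feedback mean was -0.13, -0.18 and -0.13 on the HDAC11-/- arrays, and the receptor mean was -0.0027, -0.01 and -0.04. The feedback minus receptor value was 0.09, -0.01 and -0.09 in WT and -0.13, -0.17 and -0.09 in HDAC11-/- Tregs, with a mean difference of -0.13. The lowest WT array (-0.0876) lay just below the highest HDAC11-/- array (-0.0875), so the groups overlapped, but only barely. Each gene stood by its brightest probe set. For Il2ra, whose probe sets disagreed, the dimmer one (higher by 0.21) was therefore left out. The value was not computed with that probe set, so the overlap holds for this choice only. The mean over the feedback genes also joined a rise in Cish with falls in Socs1 and Socs2.

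Around these genes, 62 of 69 others of the pathway, in 7 lists by role, were measured, each by its brightest probe set. Limma called 5 higher (Gzmb, Pias2, Myc, Ifng and Il2) and 2 lower (Lta and Cbl), against 3.46% and 3.72% of all genes. Past the adjusted p alone, 16 were higher and 21 lower, against 22.9% and 23.2% of all genes, and the median difference was -0.05. Il7r and Il4ra stand in more than 1 list and are counted once here.

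Cytokines and receptors of the common gamma chain family were measured for 8 of 8 genes, with a median of -0.01. Past the test 2 were higher and 2 lower, beside 22.9% and 23.2% of all genes. Il2 itself read 5.91, 6.18 and 6.15 in WT and 6.57, 6.74 and 6.76 in HDAC11-/- Tregs. The WT values lay near the top of the control range, which was 5.43, 5.48 and 5.27 on those arrays. The part of other cells in the Il2 level was not tested. All HDAC11-/- arrays were higher, by 0.61, or 1.53-fold (adjusted p = 0.0020, limma), close enough to the fold threshold that the call was lost on the reference-gene scale (0.50), without WT replicate 1 (0.53) and without HDAC11-/- replicate 3 (0.57). Il7r, the IL-7 receptor that marks resting T cells, was lower by -0.44 at its brighter probe set (adjusted p = 0.00053) and by -0.76 at its dimmer one, which alone reached 1.5-fold. Il21r was higher by 0.21 and Il15ra lower by -0.16, while Il15 and Il9r lay in the control range on all arrays.

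Other kinases and transcription factors of the family were mostly lower by their brightest probe sets. Of 6 measured, limma called 0 and SAM 0, against 7.18% and 7.20% of all genes. An unadjusted p under 0.05 (limma) was found for 6. The adjusted p was passed by 5, all lower, beside 23.2% of all genes that were lower past it. They were Tyk2 (-0.45), which serves type I interferon and IL-12 receptors, Stat2 (-0.41), the interferon factor, Stat3 (-0.35), downstream of IL-6 and IL-10, Stat6 (-0.19), downstream of IL-4, and Stat4 (-0.18), downstream of IL-12. The dimmer probe sets of Stat3, Stat2 and Stat6 did not pass the test (limma). For Stat3 they had values of -0.05 (adjusted p = 0.375) and, in the control range, -0.25 (0.070). For Stat2 the value was -0.31 (0.074) and for Stat6 -0.11 (0.184). Jak2 had a value of -0.13 (adjusted p = 0.054), while its dimmer probe set was higher by 0.25 and passed the test (adjusted p = 0.0115). The median of -0.27 moved to -0.38 on the reference-gene scale and -0.25 on the bacterial scale.

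Other inhibitors of the pathway, phosphatases, PIAS proteins and the remaining SOCS and CBL members, were measured for 16 of 17 genes. Their median was -0.11, with 2 higher and 7 lower past the test, beside 22.9% and 23.2% of all genes. Pias2, a SUMO ligase of the PIAS family, read 7.65, 7.67 and 7.67 in WT and 8.59, 8.55 and 8.68 in HDAC11-/- Tregs, a rise of 0.95 (1.93-fold, adjusted p = 3.6e-05, limma) with no overlap. Its other probe set was higher by 0.30. The related Pias3 (-0.50), Pias1 (-0.35) and Pias4 (-0.35) were lower, as was the phosphatase Ptpn1 (-0.37), which acts on JAK2 and TYK2. The dimmer Ptpn1 probe set had a value of -0.01 and did not pass (adjusted p = 0.870, limma). The direction of Pias1 turned by the median of its probe sets (0.24). Socs6 was higher by 0.25, and Socs3, the inhibitor of IL-6 signalling, had a value of 0.04 at its brightest probe set that did not pass the test, while of its other probe sets one was lower by -0.27 (adjusted p = 0.0044) and one had a value of -0.12 (adjusted p = 0.156).

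The parts of the ubiquitin ligase that SOCS box proteins recruit were higher past the test for 3 of 3 measured genes. The share of all genes was 22.9%, and Cul5 was not analysed here. Elongin B (Elob), elongin C (Eloc) and the RING protein Rnf7 each rose by 0.27, with adjusted p from 0.0033 to 0.0084 (limma). By these probe sets none was called at 1.5-fold by limma or SAM, though a dimmer Eloc probe set was called at 0.61, while all 3 had an unadjusted p under 0.05, and the median stayed above 0 on the reference-gene scale (0.16). Among 6 of 7 receptor adaptors, the guanine exchange factors Sos1 (0.35) and Sos2 (0.36), which activate RAS, were higher and the kinase Syk (-0.56), abundant in B cells and myeloid cells, was lower. Past the test 2 adaptors were higher and 1 lower, beside 22.9% and 23.2% of all genes. Limma and SAM called 0 of the 6, against 7.18% and 7.20% of all genes, and 5 had an unadjusted p under 0.05. The direction of Sos1 turned by the median of its probe sets (-0.36), which is the value of a probe set in the control range in both groups. A dimmer Syk probe set was called at -0.64.

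Genes known to be induced by IL-2 and STAT5 held both higher and lower members. Of 21 of 23 measured, 7 were higher and 4 lower past the test, beside 22.9% and 23.2% of all genes, with a median of 0.02 that turned to -0.10 on the reference-gene scale. Gzmb, the cytolytic protease granzyme B, read 7.88, 7.73 and 7.85 in WT and 9.87, 9.90 and 9.86 in HDAC11-/- Tregs. Its rise of 2.06, or 4.16-fold (adjusted p = 2.8e-06, limma), was the largest of the 62 genes. Myc, a transcription factor of cell growth, rose by 0.72, the cytokine Ifng by 0.71 and the repressor Nfil3 by 0.54. Lta, the cytokine lymphotoxin alpha, read 10.67, 10.65 and 10.72 in WT and 9.89, 9.88 and 9.88 in HDAC11-/- Tregs, and fell by 0.80 on the log2 scale (adjusted p = 3.9e-05). The survival genes Pim2 (-0.38) and Bcl2 (-0.38) and the cyclin Ccnd3 (-0.16) were also lower. These values stand beside the rise of immediate early and mitotic genes given above, whose part in them was not tested.

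Genes that IL-2 is known to lower were measured for 4 of 5. The IL-6 receptor chains Il6ra (-0.56) and Il6st (-0.41) and again Il7r were lower past the test, with Bcl6, the follicular helper factor, at 0.12 without passing. Limma and SAM called 0 of these 4, against 7.18% and 7.20% of all genes. The 3 lower past the test stand beside 23.2% of all genes, and all 4 had an unadjusted p under 0.05.

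**Figure D4:**
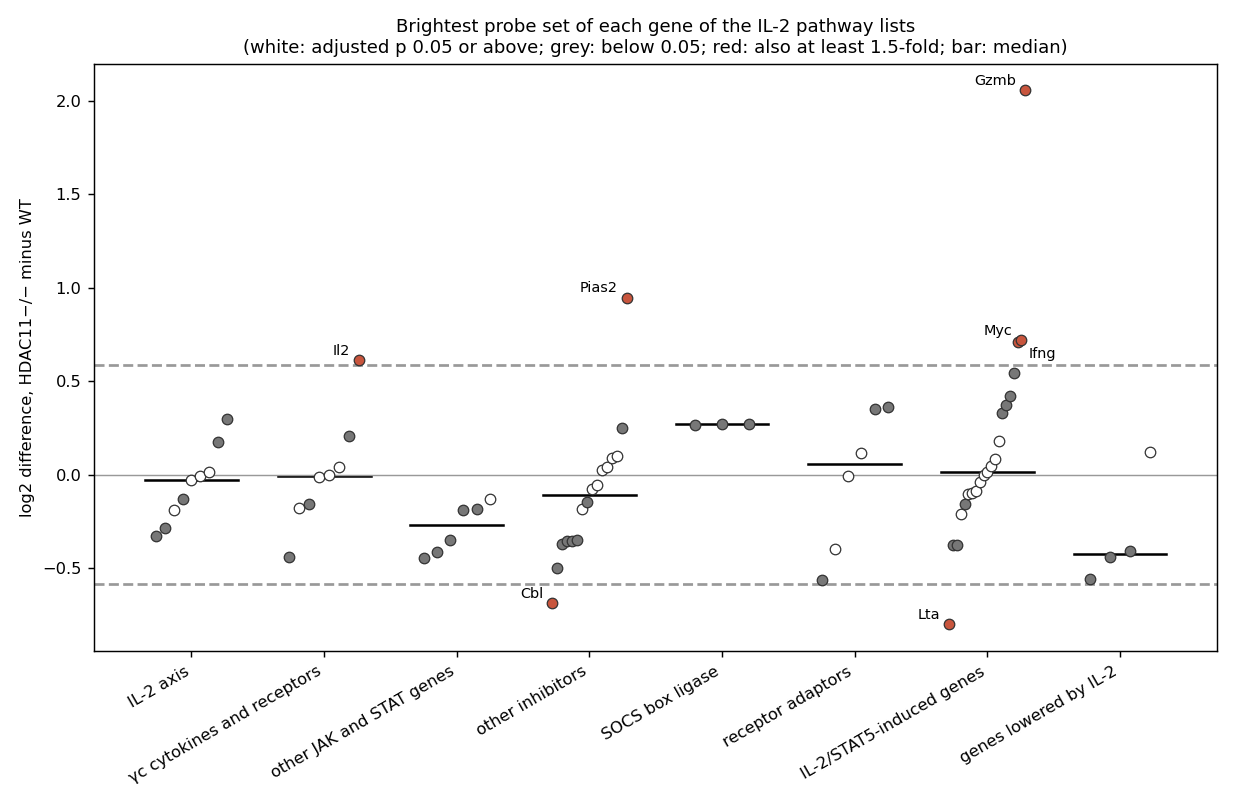
Difference between HDAC11-/- and WT Tregs (log2) for the brightest probe set of each IL-2 axis gene and of each gene in 7 pathway lists, with the median of each list as a bar and dashed lines at 1.5-fold. White points did not pass the adjusted p, grey points did, and red points were also called. The IL-2 axis genes lay between -0.33 and 0.30, while Gzmb reached 2.06, and all 6 points of the other JAK and STAT genes lay below 0.

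Over the 6 arrays, the genes whose level ran most like that of the brighter Il2ra probe set were Fads2 (Pearson r = 0.989), Nfe2l2 (0.986), Myl9 (0.984), Pcdh7 (0.973) and Sult1c1 (0.969). Myl9, Pcdh7 and Sult1c1 lay in the control range in both groups, and 54 genes had an r above 0.9. With 6 arrays and an Il2ra range this narrow, these values describe the arrays only. By its brightest probe set no IL-2 axis gene was called, so no such neighbours were sought for a second one.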

How the data were processed

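The authors amplified 100 ng of total RNA, labelled it with biotin, hybridised it, normalised the arrays by RMA in MAYDAY 2.12 and deposited the log2 values. The sources used here do not give the release of the probe definitions. Of 22671 probe sets, 45 controls were left out, and 20380 of the others carried 1 gene symbol, 691 several and 1555 none. A pair of probe sets annotated to both Jak3 and Insl3 was left out. The deposited values were tested with limma 3.58.1 (lmFit, eBayes; R 4.3.3) on genotype alone, after the procedure was tested on simulated data. Adjusted p under 0.05 and 1.5-fold are the thresholds of the methods, and SAM, which they name, was run over all 20 labelings as an alternative. Each gene stands by its brightest probe set, by mean level on the 6 arrays. Control range means at or below the highest bacterial control of the same array, which lay between 5.06 and 5.48. Named were all IL-2 axis genes, up to 4 genes per direction with the smallest adjusted p in each list, genes in counts of 5 or fewer, and the 5 genes most like Il2ra. The dimmer probe sets of listed genes, Jak2, Socs3, Bcl6 and Klrd1 were named after their values were seen. The genes and lists were chosen with earlier results of these data known. No detection calls were used, and the number of arrays limits the precision. Promoters came from RefSeq, GRCm38.p6.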

Additional observations from a re-analysis of the deposited data

How the results depend on the processing

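With no fold threshold, called probe sets of the IL-2 axis went from 0 to 4 higher and from 1 to 4 lower, called genes to 2 higher and 3 lower, and called pathway genes to 16 higher and 21 lower. With a 2-fold threshold 1 pathway gene was called higher and 0 lower. With an intensity trend and robust prior, 0 probe sets of the axis and 1 pathway gene were called lower. On the reference-gene scale, 2 probe sets of the axis passed higher and 7 lower, 1 gene passed higher, and 5 pathway genes were called lower. By SAM, 2 probe sets and 1 gene of the axis passed higher. Without probe sets whose names carry a suffix (_s_at, _x_at or _a_at), 1 gene of the axis passed in each direction. In that setting 9 pathway genes passed higher and 3 were called higher. That setting gave no value for Jak3, Stat5a, Stat5b and Socs1, and so could not be run for feedback minus receptor. By the median of each gene's probe sets, 4 pathway genes were called lower. Leaving out 1 array at a time, 0 to 1 probe sets of the axis were called lower, 2 to 4 passed higher and 2 to 4 lower, 1 to 2 genes passed higher, and 1 to 3 pathway genes were called lower. The cause was not tested. Array weights, the bacterial-control scale and a filter on dim probe sets moved none of these counts by over 1.5 times.

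Directions turned for values near 0. Il2ra 1420692_at became 0.0021 with array weights, 0.018 on the bacterial scale and 0.10 by the median, and ran from -0.055 to 0.029 on leaving out 1 array. Jak1 1433803_at became -0.10 on the reference-gene scale and ran from -0.017 to 0.033 on leaving out 1 array, and Jak1 by the median was 0.0075. Stat5b 1422102_a_at became -0.059 and Stat5b 1422103_a_at -0.10 on the reference-gene scale, and the former ran from -0.0029 to 0.13 on leaving out 1 array. By the median Pias1 became 0.24, Sos1 -0.36 and Id2 -0.14, and Id2 was -1.09 without the probe sets that carry a suffix. The difference between feedback genes and receptor chains stayed negative throughout, from -0.17 to -0.08 on leaving out 1 array.

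Equal replicate numbers correlated at 0.23, -0.02 and 0.16 across groups, so they were not read as pairs. With the replicate number as a block, 4 probe sets of the axis passed higher and 4 lower, with Jak3 no longer passing (-0.13, adjusted p = 0.0877, limma) and the brightest Jak1 probe set gaining a pass (-0.19, adjusted p = 0.0315).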
